A study of Mus musculus with 2 samples.

Results

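The CCN proteins and the YAP-TEAD pathway were examined in mouse embryonic fibroblasts (MEFs) that lack Bmi1, which is part of Polycomb repressive complex 1. The set held 10 genes, chosen by name with earlier results of these arrays known. These were Ccn1, Ccn2, Ccn3, Ccn4 and Ccn5 (older symbols Cyr61, Ctgf, Nov, Wisp1 and Wisp2), Yap1, Wwtr1 (also called Taz), Tead1, Ankrd1 and Amotl2. All 10 were found on the array, among 18194 genes with a symbol of their own, through 20 of 45101 probe sets, and 3 of them had a single probe set. Expression was profiled on 1 Affymetrix array from Bmi1 null MEFs and 1 from wild-type MEFs. Both lines were derived from littermate embryos and immortalized with a TBX2 construct, which the wild-type cells therefore carried too, and the labels give both as untreated, male and of strain C57BL/6. Each genotype was a single cell line and a single array, so line, culture, array and genotype cannot be told apart, no test was possible, and every difference is one between 2 arrays.

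CCN proteins are secreted matricellular proteins that bind integrins and heparan sulfate proteoglycans and tune how cells respond to matrix and growth factors. YAP and TAZ, the products of Yap1 and Wwtr1, are co-activators without a DNA-binding domain of their own. They enter the nucleus when the Hippo kinases are inactive and act there through TEAD transcription factors. Ccn1, Ccn2, Ankrd1 and Amotl2 are widely used as readouts of YAP and TAZ activity in fibroblasts. That activity is set largely by phosphorylation and location of the proteins, which an RNA array does not measure.

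Values are MAS5 signals on a linear scale, as deposited. The mean signal after trimming 2% at each end, computed from the deposited values, was 500 on each array. Signals below a floor of 100 were set to that floor before ratios were formed, and where 1 array was below it the fold is given as a bound (at least N-fold). Ratios are Bmi1 null over wild-type. The agreement between different probe sets of a gene gave a yardstick, the SD of a log2 ratio per probe set. It came from the brightest pair of probe sets of each gene that were above the floor on both arrays. Pairs were grouped by the mean signal of the dimmer probe set. The SD was 0.18 at mean signals of 2000 or more (720 pairs of probe sets), 0.26 from 500 to 2000 (1709 pairs) and 0.34 from 100 to 500 (2162 pairs). Each member probe set was set beside the SD at its own mean signal. The SD covers probe set error only, not the error between cultures or arrays, for which there was no measure with so few arrays.

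The targeted gene was checked first. Bmi1 read 2146 in null cells against 9933 in wild-type cells at its brighter probe set (4.63-fold lower), and 831 against 931 at the other. Transcripts of the Y chromosome went against the label of the null line. Eif2s3y read 23.3 in null cells and 1683 in wild-type cells, at least 16.8-fold lower, at its brighter probe set. Kdm5d read 15.3 in null cells and 712 in wild-type cells at its brightest probe set, at least 7.12-fold lower. The other probe sets of Eif2s3y and Kdm5d were below the floor on both arrays. Uty was also below the floor in null cells at every probe set. Fibroblast markers were detected on both arrays, with 12 of 13 markers above the floor in null cells and 12 of 13 in wild-type cells. Thy1 was the marker below the floor in null cells and Fap the one in wild-type cells. Past 2-fold at their representative probe sets, the collagen genes Col3a1 (4.38-fold), Col5a1 (2.73-fold) and Col1a1 (2.16-fold) were higher in null cells. Their other probe sets gave larger ratios, 22.7-fold for Col3a1, 4.53-fold and 4.06-fold for Col5a1 and 3.65-fold for Col1a1. Col1a2, picked out with its values known, was 1.13-fold higher at its representative probe set. At its others Col1a2 was 2.56-fold and at least 2.92-fold higher. Pdgfra, a receptor of fibroblasts and their precursors, was lower, with 532 in null cells and 4952 in wild-type cells (9.31-fold), as was Thy1 (at least 3.75-fold, picked out with its value known). The summed signal of the list was 139322 in null cells and 119205 in wild-type cells, but 78397 in null cells and 89444 in wild-type cells without its 4 collagen genes.

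All 20 member probe sets had a signal above the floor on at least 1 array, and 18 of them on both. At the probe set that represented each gene, the one with the highest mean log2 signal, 2 of 10 genes reached 2-fold higher signal in null cells and 0 reached 2-fold lower signal. Over all 11794 measured genes, 5.79% reached 2-fold on the higher side and 5.18% on the lower side. At the level of probe sets, 4 of 20 reached 2-fold on the higher side and 0 on the lower side, beside 5.06% and 5.1% of 20620 measured probe sets with a single gene. The median log2 ratio of the 10 genes was 0.28, and that of all measured genes was 0.0066. Since the genes were selected with this comparison known, these counts describe the set and nothing is read from them. The genes that differed at least 2-fold were the CCN genes Ccn2 and Ccn3, and Ccn4 lay at the threshold.

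**Figure D1:**
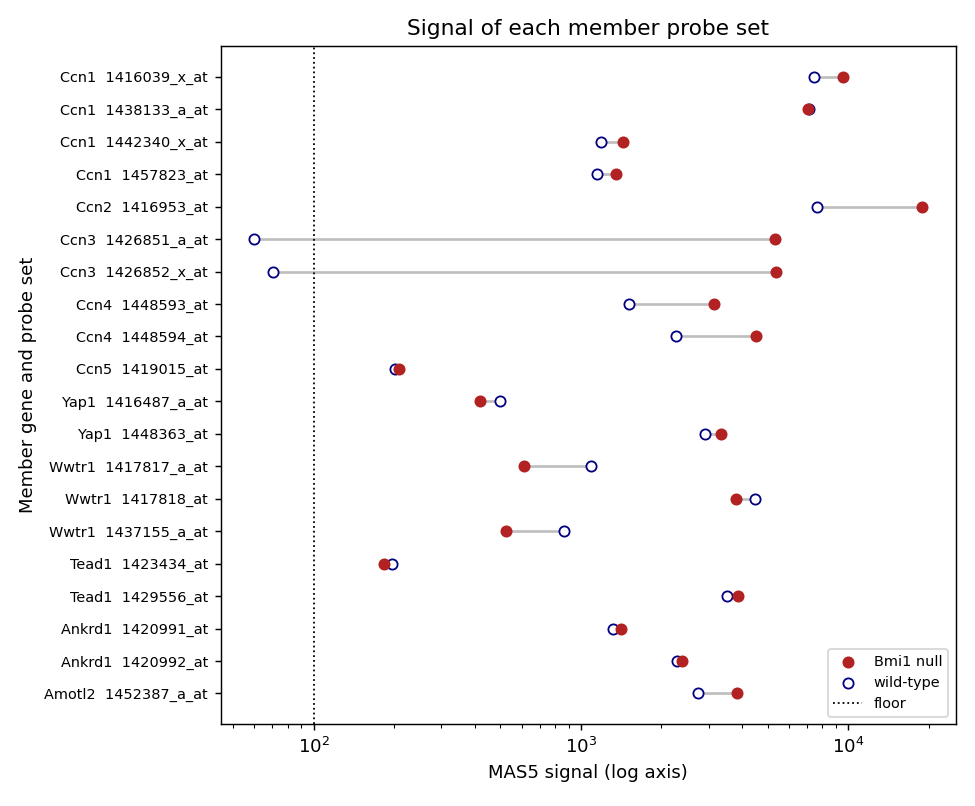
MAS5 signal (log axis) of each member probe set on the Bmi1 null array (filled red) and the wild-type array (open blue), joined by a grey line, with the floor of 100 dotted. Both Ccn3 probe sets lie left of the floor in wild-type cells and at 5323 or more in null cells, whereas the paired points of Ccn1, Ccn5, Tead1 and Ankrd1 lie close together.

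Ccn3 had the most extreme ratio of the set. Its product is a CCN protein first found as a gene overexpressed in nephroblastoma, and it is often described as opposing CCN2 in matrix production. Ccn3 probe set 1426852_x_at read 5387 in null cells against 70.8 in wild-type cells, a difference of at least 53.9-fold with null cells higher. At Ccn3 probe set 1426851_a_at the signals were 5323 in null cells and 59.9 in wild-type cells, at least 53.2-fold higher. Thus Ccn3 was not above the floor in wild-type cells at either probe set. The suffixes _x_at and _a_at mark probe sets that can share sequence with other transcripts or with several transcripts of a gene. Both Ccn3 probe sets were designed from the same sequence record, so they may not stand for separate parts of the gene. The pairs of probe sets of Ccn4, Yap1 and Ankrd1 each share a record as well. So do Ccn1 probe sets 1442340_x_at and 1457823_at, and Wwtr1 probe sets 1417817_a_at and 1417818_at.

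Ccn2, the connective tissue growth factor gene and a standard YAP target, had 1 probe set. It read 18881 in null cells and 7638 in wild-type cells, 2.47-fold higher in null cells (log2 ratio 1.31). This log2 ratio was 7.10 times the SD per probe set at such signals. A ratio at least as high, bounds against the floor included, was found for 3.81% of measured genes. The null signal of Ccn2 was not far below the highest on that array, 22149.

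Ccn4, a Wnt-inducible CCN gene of mesenchymal cells, was higher at both of its probe sets by about the same factor. Probe set 1448594_at of Ccn4 read 4501 in null cells and 2267 in wild-type cells (1.99-fold higher). Its probe set 1448593_at read 3144 in null cells and 1511 in wild-type cells (2.08-fold higher). One probe set of Ccn4 therefore lay just below the 2-fold threshold and the other just above it, and their log2 ratios differed by only 0.067. Ratios at least as high as at 1448594_at were found for 5.87% of measured genes.

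Ccn1 and Ccn5 differed less than 2-fold between the lines. Ccn1, which like Ccn2 is an immediate early gene and a YAP target, was represented by 4 probe sets. The brightest, 1416039_x_at, read 9574 in null cells and 7449 in wild-type cells (1.29-fold higher in null cells). The next, 1438133_a_at, read 7057 in null cells and 7136 in wild-type cells. The remaining Ccn1 probe sets, 1442340_x_at and 1457823_at, were 1.20-fold and 1.18-fold higher in null cells. The log2 ratios of Ccn1 thus ran from −0.016 to 0.36, all under 2-fold and on either side of 0. At its brightest probe set the Ccn1 log2 ratio was 1.97 times the SD per probe set. Ccn5, which encodes the family member without a C-terminal cystine knot domain, read 209 in null cells and 201 in wild-type cells at its single probe set. Its signals were dim, in the range where the SD per probe set was 0.34, and its log2 ratio was 0.06. The sixth family member, Ccn6, is not in the set and was below the floor on both arrays (68.5 in null cells and 57.8 in wild-type cells).

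**Figure D2:**
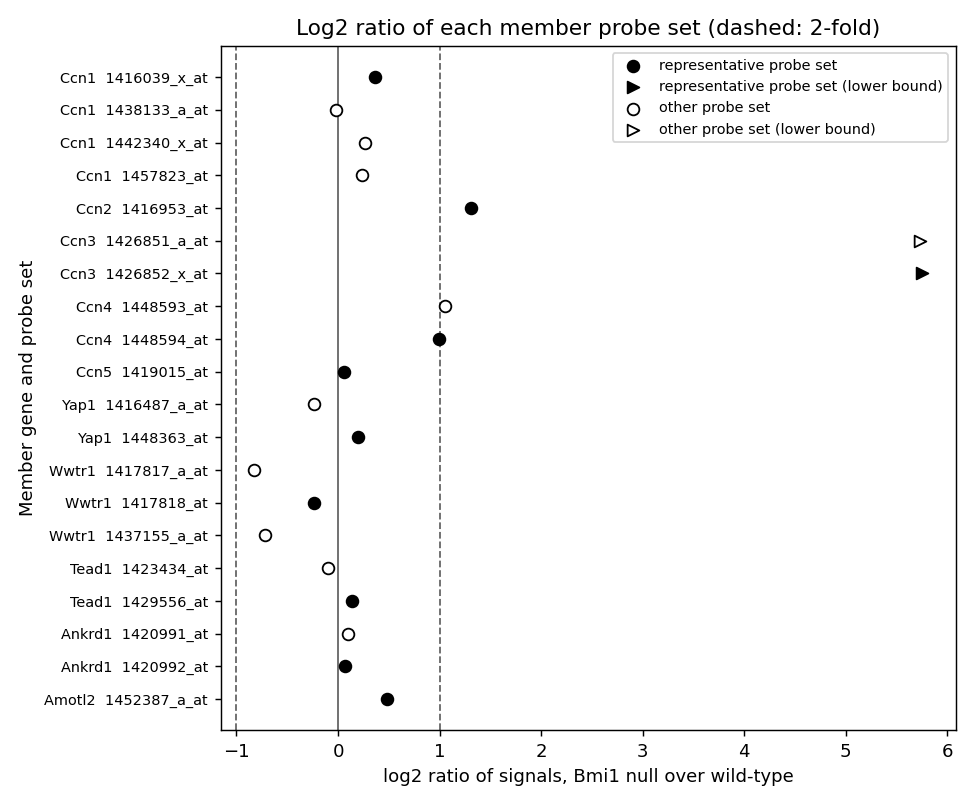
Log2 ratio of signals (Bmi1 null over wild-type) of each member probe set, with filled symbols for the probe set that represents the gene, triangles for lower bounds and dashed lines at 2-fold. Only Ccn2, Ccn3 and 1 of the Ccn4 probe sets lie to the right of the 2-fold line, and none lies to the left of the lower one.

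The co-activators and their DNA-binding partner all differed less than 2-fold. Yap1 read 3343 in null cells and 2916 in wild-type cells at its brighter probe set 1448363_at (1.15-fold higher). At probe set 1416487_a_at Yap1 had 421 in null cells and 496 in wild-type cells (1.18-fold lower). The Yap1 probe sets therefore pointed in opposite directions, and each log2 ratio, 0.20 and −0.24, was near or below the spread between probe sets at its signal. Tead1, the DNA-binding factor, likewise had a log2 ratio of 0.14 at 1429556_at (3863 in null cells and 3504 in wild-type cells) and −0.097 at the dimmer 1423434_at (183 in null cells and 196 in wild-type cells).

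Wwtr1, which encodes TAZ, was the one member with lower signal in null cells at every probe set. Its brightest probe set, 1417818_at, read 3789.8 in null cells and 4469 in wild-type cells, 1.18-fold lower (log2 ratio −0.24). Wwtr1 probe set 1417817_a_at read 614 in null cells and 1089 in wild-type cells, 1.77-fold lower. Wwtr1 probe set 1437155_a_at had 524 in null cells and 861 in wild-type cells, 1.64-fold lower. All 3 agree in sign, but they disagree in size, with log2 ratios spread over 0.59. The SD of the difference between a pair of probe sets was 0.36 where the dimmer one had a mean signal of 500 to 2000.

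Ankrd1 and Amotl2, target genes outside the CCN family, were also within 2-fold. Ankrd1 encodes a nuclear ankyrin repeat protein best known from heart muscle. It read 2394 in null cells and 2282 in wild-type cells at 1420992_at, and 1415 in null cells and 1322 in wild-type cells at 1420991_at. Both Ankrd1 ratios were below the spread between probe sets, with log2 values of 0.07 and 0.10. Amotl2 encodes an angiomotin family protein that binds YAP at cell junctions and is induced by it. Its single probe set read 3831 in null cells and 2747 in wild-type cells, 1.39-fold higher in null cells (log2 ratio 0.48). This log2 ratio was 2.61 times the SD per probe set, and 16.0% of measured genes had a ratio at least as high. Of the 4 standard target genes, then, Ccn2 was 2.47-fold higher while Ccn1, Amotl2 and Ankrd1 were 1.29-fold, 1.39-fold and 1.05-fold higher at their representative probe sets.

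**Figure D3:**
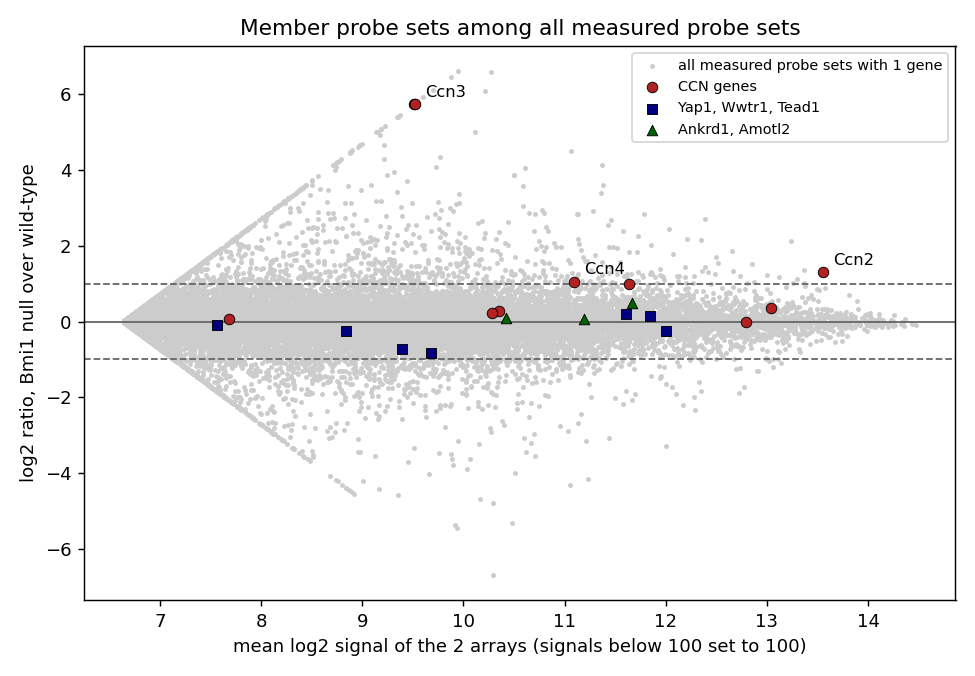
Log2 ratio (Bmi1 null over wild-type) against the mean log2 signal of both arrays for all 20620 measured probe sets with a single gene (grey), with CCN genes as red circles, Yap1, Wwtr1 and Tead1 as blue squares, and Ankrd1 and Amotl2 as green triangles. The straight left edges are probe sets at the floor on 1 array, where Ccn3 lies, and Ccn2 lies above the upper 2-fold line at the bright end.

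Promoter sequences are shown because TEAD factors recognize the letters GGAATG, read on either strand. Windows of 250 bases before the start were taken from RefSeq (build GRCm38.p6) for 5 of the members, Ccn1, Ankrd1, Amotl2, Yap1 and Wwtr1, all of which differed less than 2-fold. Those of Ccn2, Ccn3, Ccn4, Ccn5 and Tead1 were not analysed here, so members at or past 2-fold could not be set beside the others. Capitals mark GGAATG or its reverse complement CATTCC, and each sequence is written 5′ to 3′ on the strand of its gene. The windows of the target genes are given whole, in the order of the coordinates chr3:145649986-145650235 (minus strand), chr19:36119845-36120094 (minus strand) and chr9:102717554-102717803 (plus strand).
Ccn1: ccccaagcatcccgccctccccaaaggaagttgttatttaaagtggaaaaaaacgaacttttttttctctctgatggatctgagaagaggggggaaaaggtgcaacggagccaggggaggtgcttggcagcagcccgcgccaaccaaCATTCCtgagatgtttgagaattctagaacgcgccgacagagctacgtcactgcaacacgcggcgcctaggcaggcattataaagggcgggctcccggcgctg
Ankrd1: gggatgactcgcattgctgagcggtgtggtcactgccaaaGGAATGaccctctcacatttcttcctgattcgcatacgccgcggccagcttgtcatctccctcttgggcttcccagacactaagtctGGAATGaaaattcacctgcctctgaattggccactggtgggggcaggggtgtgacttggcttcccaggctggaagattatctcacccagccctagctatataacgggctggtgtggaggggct
Amotl2: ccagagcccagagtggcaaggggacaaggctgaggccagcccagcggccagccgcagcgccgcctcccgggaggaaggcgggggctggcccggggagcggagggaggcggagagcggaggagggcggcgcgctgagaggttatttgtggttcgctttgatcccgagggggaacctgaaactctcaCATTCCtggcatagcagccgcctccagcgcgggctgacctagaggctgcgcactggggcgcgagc

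For the co-activator genes, 40 bases around the match are shown, at chr9:8004715-8004754 for Yap1 and chr3:57576024-57576063 for Wwtr1, both on the minus strand.
Yap1: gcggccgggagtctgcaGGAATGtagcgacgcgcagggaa
Wwtr1: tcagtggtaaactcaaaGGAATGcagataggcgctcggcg

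The motif GGAATG was present in all 6 windows of these 5 genes, since Wwtr1 has overlapping windows that share 1 match. It was found in 12.6% of all 32851 promoter windows of this length. The match began 103 bases before the start in Ccn1, 65 in Amotl2 and 141 in Yap1, and Ankrd1 had matches at 210 and 123 bases. The longer form GGAATGT, which overlaps the shorter one, was present in the windows of Ccn1, Amotl2 and Yap1, against 3.25% of all windows. Neither the AP-1 motif TGANTCA (6.75% of all windows) nor the CArG box of SRF (1.47%) was found in any of the member windows. All 5 genes with a window had a match, and their log2 ratios ran from −0.24 (Wwtr1) to 0.48 (Amotl2). With no member window lacking a match, matches and ratios could not be set against each other. Of 20 windows from 17 other YAP and TAZ target genes, 4 held GGAATG (20%). It was found in 5 of 8 windows of the other TEAD and VGLL factors (62.5%), in 6 of 21 of the Hippo kinases and upstream regulators (28.6%) and in 2 of 7 of the CCN receptors and co-receptors (28.6%). These matches are descriptions of letters and not of binding.

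Further genes of the pathway were described from lists chosen by role. Their counts stand beside 5.79% of all measured genes past 2-fold upward and 5.18% downward. Of 21 measured Hippo kinases and upstream regulators, 1 passed 2-fold upward in null cells and 1 downward, and the median log2 ratio was 0.0082. Fat4, an atypical cadherin upstream of the pathway, was the higher one, with 2053 in null cells and 523 in wild-type cells (3.92-fold). A second Fat4 probe set was 2.60-fold higher. Frmd6, a FERM domain protein that promotes Hippo signaling, was the lower one, with 632 in null cells and 1493 in wild-type cells (2.36-fold). The kinases Lats1 and Lats2, picked out with their values known, differed less than 2-fold. Lats1 read 2015 in null cells and 2359 in wild-type cells, and Lats2 read 3029 in null cells and 3366 in wild-type cells at its brightest probe set. The angiomotins Amot and Amotl1, relatives of Amotl2, were lower in null cells, by 1.76-fold and 1.53-fold at their representative probe sets, whereas Amotl2 was higher. Amot and Amotl1 were picked out with their values known.

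Among the other TEAD and VGLL factors, 5 of 7 were measured, and 0 passed 2-fold in either direction (median log2 ratio −0.19). Tead2 had 1155 in null cells and 967 in wild-type cells (1.20-fold higher), and Tead3 had 468 in null cells and 369 in wild-type cells (1.27-fold higher). Tead4 was below the floor in null cells (76.4) and read 130.1 in wild-type cells. Vgll3, a cofactor that binds TEAD factors, read 5324 in null cells and 8888 in wild-type cells at its representative probe set (1.67-fold lower), and its other probe sets were 1.98-fold and 2.11-fold lower. These 4 factors were picked out with their values known.

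Other target genes of YAP and TAZ went both ways. Of 24 on the list, 23 were measured, with a median log2 ratio of −0.15. In null cells 4 passed 2-fold upward and 4 downward, beside 5.79% and 5.18% of all measured genes. On the higher side, Tgfb2, a growth factor that induces Ccn2 in fibroblasts, read 3187 in null cells and 104.6 in wild-type cells (30.5-fold), and its other probe sets were higher by at least 10.5-fold, 18.6-fold and 22.2-fold. Gas6, a ligand of the receptor Axl, read 968 in null cells and 147 in wild-type cells (6.57-fold). Ccdc80 was 2.30-fold higher, and Asap1 was 2.23-fold higher but 1.46-fold at another probe set.

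Gadd45a, a stress response gene, was 4.42-fold lower, with 705 in null cells and 3112 in wild-type cells. Dock5 was 2.55-fold lower, and its other probe sets were 2.73-fold and 2.27-fold lower. Nuak2 (2.02-fold) and the dim gene Edn1 (2.17-fold, picked out with its value known) completed the lower side. Axl, itself a target gene and picked out with its value known, read 5159 in null cells and 8123 in wild-type cells (1.57-fold lower). Beside these, Ccn2 and Ccn3 were higher by 2.47-fold and at least 53.9-fold.

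Among CCN receptors and co-receptors, 10 were measured (median log2 ratio 0.06). Of these, 0 passed 2-fold upward and 2 downward, beside 5.79% and 5.18% of all measured genes. The laminin-binding integrin subunit Itga6 read 784 in null cells and 1839 in wild-type cells (2.35-fold lower). Itgb3, a subunit of an integrin that binds CCN1 and CCN2, read 48.9 in null cells and 437 in wild-type cells, at least 4.37-fold lower. This gene was picked out with its value known. The main partner of Itgb3, Itgav, was 1.12-fold lower at its brightest probe set (11438 in null cells and 12824 in wild-type cells). At the next Itgav probe set it was 1.53-fold lower (611 in null cells and 935 in wild-type cells). The heparan sulfate proteoglycan Sdc4 was 1.94-fold higher, with 1751 in null cells and 904 in wild-type cells. Itgav and Sdc4 were likewise picked out with their values known.

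**Figure D4:**
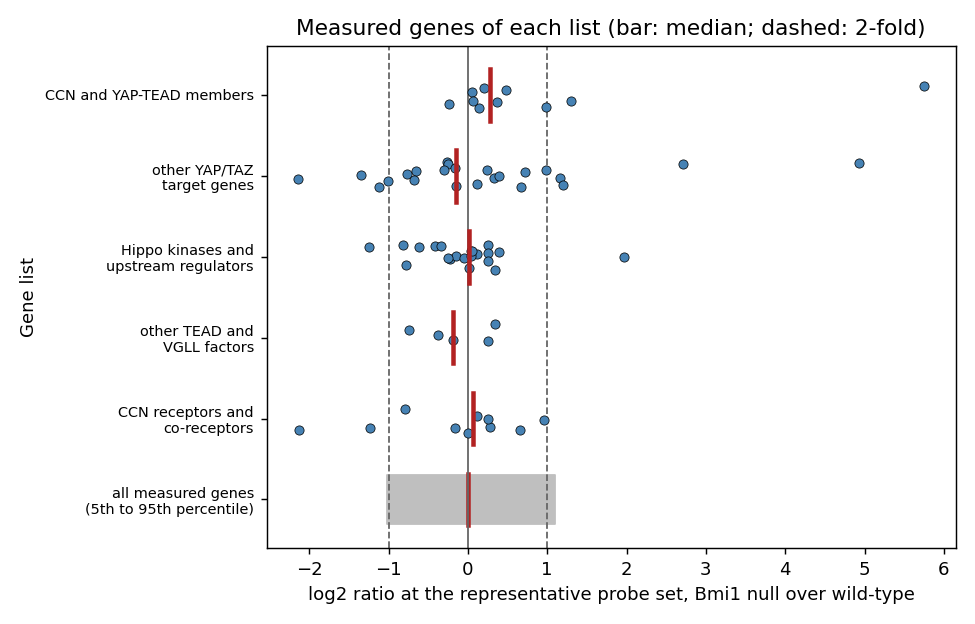
Log2 ratio (Bmi1 null over wild-type) at the representative probe set of each measured gene (points) in the member set and 4 further lists, with red bars at the medians, dashed lines at 2-fold and a grey band from the 5th to the 95th percentile of all measured genes (−1.02 to 1.10). The member set has its median at 0.28 and its rightmost point, a lower bound, is Ccn3, whereas the other target genes spread to both sides of 0.

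Markers of contractile cells moved in the same direction as Ccn2, Ccn3 and Ccn4. In a bulk sample fewer cells of a type and less RNA per cell cannot be told apart. Of 8 smooth muscle and myofibroblast markers, 6 passed 2-fold upward in null cells and 0 downward, beside 5.79% and 5.18% of all measured genes. The summed signal of these markers was 49865 in null cells and 25839 in wild-type cells. All 8 were above the floor in null cells, while Cnn1, Myh11 and Mylk were below it in wild-type cells. The contractile genes Cnn1, Mylk, Smtn and Lmod1 were higher by at least 22.9-fold, at least 7.49-fold, 5.85-fold and 5.58-fold. Acta2 and Tagln, picked out with their values known, were 1.45-fold and 1.57-fold higher at their representative probe sets. Mesothelial markers had a summed signal of 11988 in null cells and 3535 in wild-type cells, with Gpm6a and Upk3b past 2-fold upward and Msln downward among 5 measured genes, and Wt1 below the floor on both arrays. Gpm6a alone carried this difference, with 8828 in null cells and 4.52 in wild-type cells, and without it the list summed to 3160 in null cells and 3530 in wild-type cells. Cartilage and bone markers summed to 4676 in null cells and 1672 in wild-type cells, with Col11a1 alone past 2-fold among 4 measured genes, on the higher side. Without Col11a1 (3794 in null cells and 729 in wild-type cells) that list summed to 882 in null cells and 943 in wild-type cells. Of its bone markers, Sp7 and Ibsp were below the floor on both arrays. Runx2, Bglap and Spp1 were not found among genes with a symbol of their own, so none of these bone markers was measured.

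Other marker lists, apart from the neural and glial one, were mostly dim, and their summed signals differed in direction from list to list. Of 7 epithelial markers, Cdh1, Krt8, Krt18, Krt19 and Krt14 were below the floor on both arrays, whereas Epcam read 834 in null cells and 149 in wild-type cells (5.59-fold higher) at 1 probe set and was below the floor on both arrays at its other one. Of 7 endothelial markers, Pecam1, Tek, Tie1 and Vwf were below the floor on both arrays, and Cdh5, picked out with its value known, read 29.2 in null cells and 208 in wild-type cells. Of 7 macrophage and blood markers, Ptprc, Cd68, Itgam and Lyz2 were below the floor on both arrays, and Cd14 read 453 in null cells and 1012 in wild-type cells (2.24-fold lower). The summed signals were 1241 in null cells and 454 in wild-type cells for epithelial, 405 in null cells and 442 in wild-type cells for endothelial, and 968 in null cells and 1605 in wild-type cells for macrophage and blood markers. Among 8 skeletal and cardiac muscle markers, with a sum of 2182 in null cells and 2613 in wild-type cells, Tnnc1 was 2.54-fold higher and Acta1 2.17-fold lower, and Myod1, Myog and Myh6 were below the floor on both arrays. Among 8 neural and glial markers the sum was 10054 in null cells and 6841 in wild-type cells. Map2, a neuronal microtubule protein gene, was 8.77-fold higher and Ncam1 2.25-fold higher. Gap43, a growth cone protein gene, was lower, with 119.9 in null cells and 2211 in wild-type cells (18.4-fold), and Tubb3, picked out with its value known, was 2.70-fold lower. The part of these cell types in the CCN values was not tested.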

How the data were processed

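RNA from 1 Bmi1 null and 1 wild-type MEF line was hybridized to Affymetrix whole-genome mouse expression arrays. The authors derived the deposited intensity of each probe set with MAS5 (Microarray Suite 5.0 per the methods). How they scaled the arrays is not given in the sources used here, and the trimmed mean was computed from the deposited values. A single factor per array hides a change shared by most transcripts. Detection calls and raw scans were not used here.

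Of 45101 probe sets, 34958 had 1 gene symbol in the platform annotation, 932 several and 9211 none there. Entrez identifiers linked 34754 of the symbols to RefSeq, and 0 needed an update. Signals below 0.2 times the trimmed mean were raised to that floor, and genes at or below it on both arrays had no ratio. Each gene was represented by its brightest probe set (mean log2 signal after the floor). The members and lists were chosen with earlier results of these data known. Named were all members and, per list, up to 4 genes each way past 2-fold whose signal reached 500 on either array, besides Bmi1 and genes said to be picked out with their values known or named for the floor, the Y chromosome or as a family member (Ccn6). No p-value was computed. The steps were tested on simulated data. Analyses used Python 3.11.15, numpy 2.4.6 and pandas 2.3.3.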

Additional observations from a re-analysis of the deposited data

How the results depend on the processing

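With 1 array per group no replicate could be left out, and no paired analysis was possible because each group had 1 array. The results were recomputed without a floor, with the floor at 0.1 or 0.4 times the trimmed mean, with a pseudocount of 0.2 times the trimmed mean, after quantile normalization, after centring on the median ratio, with the mean over probe sets, and without probe sets whose names end in _s_at, _x_at or _a_at. Of 132 recomputed counts and medians, 130 stayed within 1.5 times the main count or within the spread between probe sets. For medians that spread was 0.29, larger than any main median, so a median could change sign and still be counted as unchanged. Most member signals lay above every floor used, so the floor settings could hardly move them. The count of 130 is therefore no measure of how stable the medians are. The number of member genes at least 2-fold higher was 1 without the suffixed probe sets, since both Ccn3 probe sets carry such a suffix. It was 3 after centring and with the mean over probe sets, where Ccn4 had log2 ratios of 1.00 and 1.02. The median log2 ratio of the member genes, 0.28 in the main setting, was 0.15 with the mean over probe sets. Without the suffixed probe sets it was 0.17, over 8 genes. The other YAP and TAZ targets at least 2-fold lower numbered 2 with the pseudocount, which shrinks ratios of dim genes, and their median log2 ratio turned to 0.14 with the mean over probe sets. Ccn3 had log2 ratios of 4.75 to 6.25, a range set by the floor under its wild-type signal. Wwtr1 had −0.59 and Yap1 −0.02 with the mean over probe sets. Over all genes, 2347 passed 2-fold upward and 1580 downward without a floor, against 683 and 611 with it. Signals near the floor limit what dim probe sets such as those of Ccn5 can show.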
